A study of Mus musculus with 12 samples.

Results

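The comparison asked how a human APOA1 transgene altered liver transcripts in mice that lacked both mouse apolipoprotein A-I and apolipoprotein E and ate a Western diet. It set 3 liver libraries from Apoa1-/- Apoe-/- mice with the transgene (DKO/hA1 Western diet) against 3 from Apoa1-/- Apoe-/- mice without it (DKO Western diet). Every gene was taken that reached an FPKM of 1 in at least 2 of these 6 libraries and was not listed at exactly 0 throughout either group. FPKM is the number of sequenced fragments scaled to transcript length and to the mapped fragments of the library. This left 11276 genes of the 23284 in the table.

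All mice of the series had been on their diet for 22 weeks, and both genotypes shared the loss of mouse Apoa1 and Apoe. The series also held 4 Apoa1-/- Apoe-/- libraries on standard chow (DKO chow) and 2 with the transgene on chow (DKO/hA1 chow), which gave the same contrast on the other diet. The promoter of the transgene and the sex and age of the mice are not given in the sources used here. Nothing in the labels says how the replicates of a group were housed or bred, so p-values measure the spread between these samples. The library codes carry a first number whose meaning the labels do not give: replicate 1 of both Western diet groups has 41, and both DKO/hA1 chow libraries and DKO chow replicate 3 have 57. In what follows, n is 3 on Western diet in each genotype, 4 for DKO chow and 2 for DKO/hA1 chow. After a log2 difference, ± is the SE, and a log2 difference is DKO/hA1 minus DKO on the log2(FPKM + 1) scale, which understates differences of genes near or below 1 FPKM.

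Apolipoprotein A-I forms most of the protein of HDL, the high-density lipoprotein. It accepts cholesterol from cells through the transporter ABCA1, activates the esterifying enzyme LCAT and delivers cholesterol to the liver through the receptor SR-BI, the product of Scarb1. Apolipoprotein E is the ligand by which remnants of triglyceride-rich lipoproteins are taken up by the liver, so mice without it accumulate remnant cholesterol. In fatty liver, macrophages that take up lipid express Trem2, Gpnmb and lysosomal proteases, and stellate cells make fibrillar collagen.

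The targeted genes were examined first. Mouse Apoa1 (chr9:46228630-46230469, build GRCm38.p6) was listed at 40.2, 60.6 and 77.4 FPKM in the DKO Western diet libraries and at 206, 240 and 122 FPKM in the DKO/hA1 Western diet libraries. Every library with the transgene lay above every library without it. The log2 difference was 1.68 ± 0.27 with a 95% interval from 1.08 to 2.29, and limma's adjusted p over all genes was 0.364. An exact two-sided permutation test of the Apoa1 level gave p = 0.1, the smallest value that 3 libraries against 3 allow. Without DKO/hA1 Western diet replicate 3, the lowest of the transgenic libraries, the difference was 1.96 and limma's adjusted p 0.0285. On chow the corresponding values were 38.1, 30.4, 46.1 and 47.0 FPKM without the transgene and 217 and 236 FPKM with it. There the difference passed, at 2.46 ± 0.29 with a limma adjusted p of 0.00885. It no longer passed without DKO/hA1 chow replicate 1 (2.53, limma adjusted p 0.126), without DKO/hA1 chow replicate 2 (2.39, 0.199) or with a clock gene index as a covariate (2.36, 0.0537). Whether the fragments counted for Apoa1 came from human APOA1 or from what remains of the mouse gene was not tested. Apoe, deleted in all mice, was listed at 89.8, 25.7 and 26.8 FPKM in DKO and at 53.2, 50.2 and 32.8 FPKM in DKO/hA1 on Western diet. The groups overlapped and the difference was 0.19 ± 0.50, a value that turned negative (-0.099) when DKO replicate 2 was left out.

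Some libraries stood apart from their groups. The FPKM of a Western diet library summed to between 379689 and 578927, and 10572 to 11005 genes reached 1 FPKM. Abundance was ranked among the 11276 genes taken, which leave out Alb and Trf. The 10 most abundant of these held 27.9% of their summed FPKM in DKO replicate 2 and 27.0% in DKO/hA1 replicate 3. The other Western diet libraries had 12.4 to 19.4%. In this ranking both of these libraries were led by Saa2 and Saa1, which encode the acute phase apolipoproteins serum amyloid A. So was DKO replicate 3, whose top 10 genes held 19.4%, although Alb, outside the ranking, was listed above Saa2 there. For many of the gene lists, medians are also given without DKO replicate 2 and DKO/hA1 replicate 3, called the 2 acute phase libraries here. DKO replicate 3 stays in those values. Pearson's r of the log2 values over genes was 0.936 to 0.969 within groups and 0.941 to 0.974 between them, so libraries of a group were no more alike than libraries of different groups.

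Alb and Trf, which encode the plasma proteins albumin and transferrin, were at 0 in all 3 DKO/hA1 Western diet libraries and were among the 16 genes excluded because a whole group was listed at 0. In DKO Western diet, Alb was listed at 13186, 8424 and 23645 FPKM and Trf at 6734, 18732 and 13901 FPKM. On chow Alb was listed at 0 in all 6 libraries of both genotypes, while Trf was at 5622 to 6858 FPKM in DKO and at 8127 and 8933 FPKM in DKO/hA1. Since the table lists albumin at 0 in 9 of 12 livers, these zeros are not read as levels. The other hepatocyte markers did not follow them. All 20 hepatocyte markers examined, such as Ttr and Apob, were present, with summed levels of 27000 to 32400 FPKM in DKO and 21300 to 32100 FPKM in DKO/hA1. Of 11 pancreas markers, 9 were at 0 in all 6 libraries. Of the remaining left-out genes, 12 were small RNA genes.

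Across the 11276 genes, none was called between DKO/hA1 and DKO on Western diet by limma at an adjusted p under 0.05 (0.0%). The smallest adjusted p was 0.231, for Htra1. At an unadjusted p under 0.05 there were 669 genes (5.93%), of which 422 (3.74%) were higher and 247 (2.19%) lower with the transgene. The 3 DKO/hA1 libraries all lay above the 3 DKO libraries in 493 genes (4.37%) and all below them in 586 (5.2%). The differences were small for most genes: 93.7% differed by less than 0.5 on the log2 scale and 1.09% by 1 or more. The median half-width of the 95% interval, which takes no account of the number of genes tested, was 0.354. The adjusted threshold asks for more, since Htra1 at 0.95 ± 0.14 and Apoa1 at 1.68 ± 0.27 did not pass it. The absence of calls therefore does not exclude differences larger than 0.354. Statements below on named genes and gene lists are therefore descriptions of these 6 libraries, to be read against those shares and against a median log2 difference of -0.0082 with 48.0% of genes positive. Scaling the libraries to equal totals moved that median to 0.161.

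No gene having passed, 15 higher and 15 lower genes were named by the smallest limma p among those without overlap and with at least 5 FPKM in the higher group. The higher genes are taken by role: stress, matrix, leukocyte and others.

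Nupr1, Snora65, Apoa1 and Atf3 had, in that order, the largest log2 differences of the 15 named higher genes. Nupr1 encodes a small chromatin protein and Atf3 a bZIP transcription factor, and both are induced in cells under endoplasmic reticulum or amino acid stress. Nupr1 was at 1.12, 0.526 and 1.24 FPKM in DKO and at 3.45, 8.60 and 20.4 FPKM in DKO/hA1 on Western diet (2.34 ± 0.50, limma adjusted p 0.651). Atf3 was at 3.25, 1.00 and 1.77 FPKM in DKO and at 3.37, 7.53 and 10.2 FPKM in DKO/hA1 (1.40 ± 0.36, limma adjusted p 0.721). In both genes DKO/hA1 replicate 1 was the lowest and replicate 3 the highest transgenic library. For Atf3 the lowest library with the transgene was barely above the highest without it. On chow Nupr1 was at 0.347 to 1.72 FPKM in the 4 DKO libraries and at 11.5 and 22.6 FPKM in the 2 DKO/hA1 libraries (3.09 ± 0.53, limma adjusted p 0.143). Atf3 on chow was at 0.238 to 1.08 FPKM against 3.68 and 5.66 FPKM (1.78 ± 0.38, limma adjusted p 0.256). The genotypes thus did not overlap in either gene on either diet.

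The promoters of these genes are shown because ATF4 and ATF3, transcription factors of the stress response, are known to bind a composite C/EBP-ATF element. RefSeq's GRCm38.p6 promoter table held 20 of the 30 named genes. Each sequence is the 250 bases before the annotated start, 5′ to 3′ on the gene's own strand, which is the minus strand in both. Capitals mark TTGCATCA, the reverse complement of the searched motif TGATGCAA.
Nupr1, chr7:126625471-126625720: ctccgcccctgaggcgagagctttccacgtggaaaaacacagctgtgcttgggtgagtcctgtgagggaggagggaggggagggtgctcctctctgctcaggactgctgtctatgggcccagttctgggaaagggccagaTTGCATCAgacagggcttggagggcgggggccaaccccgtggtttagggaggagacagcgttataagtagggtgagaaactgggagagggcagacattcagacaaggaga
Atf3, chr1:191183334-191183583: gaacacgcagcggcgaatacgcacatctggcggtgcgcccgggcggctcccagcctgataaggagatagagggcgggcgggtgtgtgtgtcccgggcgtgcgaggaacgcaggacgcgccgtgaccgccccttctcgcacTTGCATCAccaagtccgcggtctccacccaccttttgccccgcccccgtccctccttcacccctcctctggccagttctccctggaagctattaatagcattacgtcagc
In both genes the match lay 110 to 103 bases upstream of the start. On either strand, TGATGCAA was found in 260 of 32851 promoters of the table (0.791%) and in 2 of the 20 named genes, these same genes. Of the other motifs searched on both strands, the cyclic AMP response element TGACGTCA was found in Ldha and Mrpl16 and in 1.55% of all promoters. The NF-kB site GGGNNTCCC was found in Mrps7 and in 4.76% of all. The pentamer CCAAT was found in Atp6v0e2, Cd180 and Cyp2d40 and in 33.8% of all. The AP-1 site TGACTCA (4.46% of all) and a match to the sterol regulatory element (0.192%) were found in none of the 20. The motifs were chosen after the values of the genes had been seen, and a match describes the letters only.

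Most unfolded protein response genes overlapped between genotypes on Western diet. Of 20 genes of the unfolded protein response, 8 had positive log2 differences on Western diet and the median was -0.09. Scaled to equal totals, 19 were positive and the median was 0.113, below the 0.161 of all genes, and without the 2 acute phase libraries 4 were positive and it was -0.30. The sign of the median turned on single libraries, from -0.31 without DKO/hA1 replicate 3 to 0.19 without DKO/hA1 replicate 2. Only Atf3 and Ddit3 had libraries that did not overlap, of all 20. Both were higher, against 4.37% of all genes higher and 5.2% lower without overlap. Ddit3 encodes CHOP, a transcription factor induced late in that response, and was at 8.75, 6.47 and 12.1 FPKM in DKO and at 12.5, 14.5 and 25.2 FPKM in DKO/hA1 (0.87 ± 0.38). It did not overlap on chow either, at 4.21 to 10.9 FPKM against 12.1 and 28.9 FPKM. Trib3, a pseudokinase target of CHOP, was at 3.59, 1.69 and 0.99 FPKM against 1.89, 2.21 and 5.76 FPKM and overlapped. Of 14 immediate early genes, which respond within minutes to stimulation, all were positive with a median of 0.49. Higher without overlap were 2 (Jun and Atf3, which is in both lists), against 4.37% of all genes. Without the 2 acute phase libraries 12 were positive and the median was 0.34. On chow 19 of the 20 unfolded protein response genes were positive, with a median of 0.48.

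**Figure D1:**
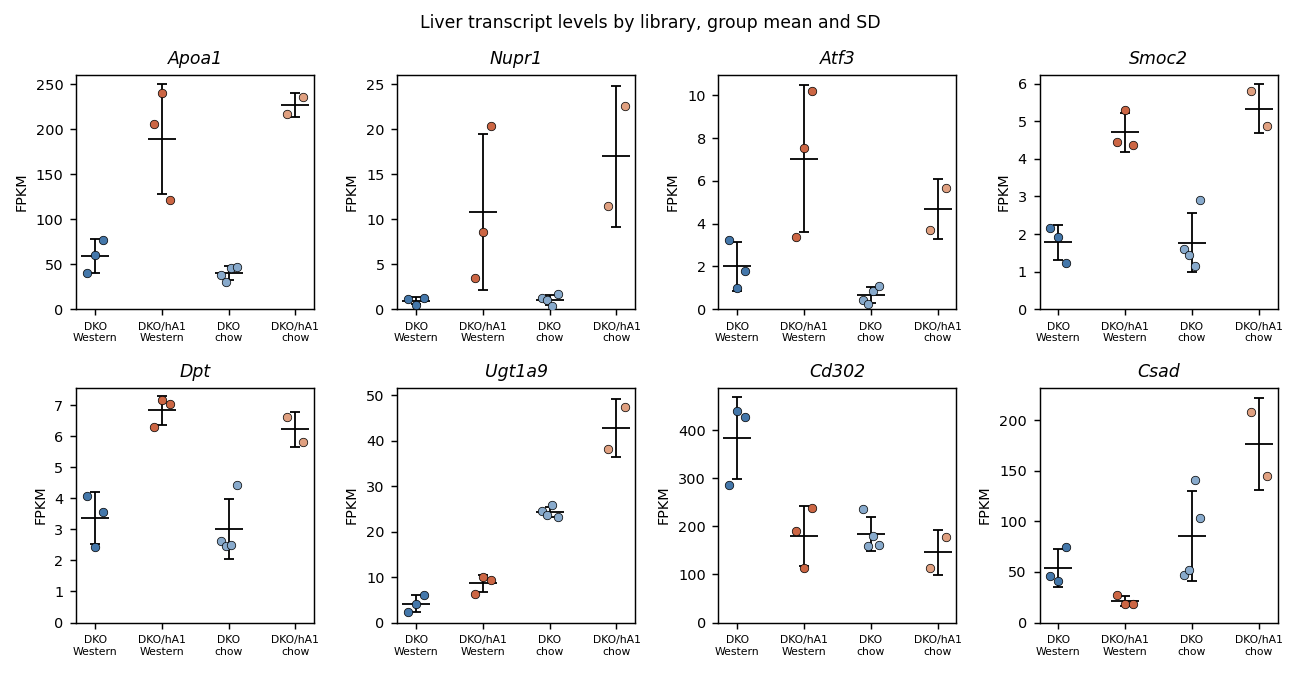
FPKM of 8 genes in each library of the 4 groups (points), with the group mean (long bar) and SD (whiskers). Nupr1 reaches 20.4 FPKM on Western diet and 22.6 FPKM on chow with the transgene, Smoc2 and Dpt show no overlap of genotypes on either diet, and Csad lies lower with the transgene on Western diet and higher on chow.

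Genes of the extracellular matrix were mostly higher with the transgene on Western diet. Of 26 listed genes 20 were measured at the required level, and 18 had positive log2 differences. In 8 of the 20, against 4.37% of all genes, the libraries did not overlap, all higher (Lum, Col1a1, Col1a2, Col3a1, Col6a1, Sparc, Col5a1 and Tgfb1). None was called by limma's adjusted p. The median of the list was 0.63, against -0.0082 for all genes, and 0.57 without the 2 acute phase libraries. The summed FPKM of the list, which its most abundant members set, did not separate the genotypes, at 466 to 622 in DKO and 388 to 575 in DKO/hA1. Col1a1, a chain of type I collagen, was at 4.41, 2.28 and 1.45 FPKM in DKO and at 6.94, 8.27 and 5.21 FPKM in DKO/hA1 (1.15 ± 0.30, limma adjusted p 0.721). Its partner chain Col1a2 was at 5.34, 2.96 and 2.17 FPKM against 5.93, 8.06 and 6.28 FPKM (0.87 ± 0.25). Col3a1, which encodes type III collagen, was at 11.2, 5.31 and 3.54 FPKM against 12.5, 15.7 and 13.2 FPKM (1.09 ± 0.34). In each of these 3 collagen genes DKO replicate 1 was the highest library without the transgene.

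Among other matrix genes, Dpt, which encodes the collagen-binding protein dermatopontin, was at 4.08, 2.43 and 3.56 FPKM in DKO and at 6.31, 7.16 and 7.04 FPKM in DKO/hA1 (0.89 ± 0.19, limma adjusted p 0.651). Lum, which encodes the small leucine-rich proteoglycan lumican, was at 3.97, 3.49 and 2.93 FPKM against 4.63, 5.95 and 8.56 FPKM (0.73 ± 0.19). Below the 5 FPKM level, and named after their values were seen, were Htra1 and Smoc2. Htra1, a secreted serine protease that cleaves matrix proteins, was at 1.55, 1.37 and 1.35 FPKM against 3.61, 3.31 and 4.00 FPKM. Its difference of 0.95 ± 0.14 carried the smallest p of the comparison and did not pass (limma adjusted p 0.231). Smoc2, a secreted calcium-binding matrix protein, was at 2.16, 1.92 and 1.24 FPKM against 4.44, 5.31 and 4.37 FPKM (1.07 ± 0.21, limma adjusted p 0.45). The DKO/hA1 libraries of Htra1 and Smoc2 were each more than 2 times the mean of the DKO libraries.

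Markers of stellate cells, the collagen-making cells of the liver, had positive differences in 10 of 10 genes, with a median of 0.47 and 0.50 without the 2 acute phase libraries. Vim, Pdgfrb and Des, 3 of the 10, were higher without overlap, against 4.37% of all genes. Pdgfrb, the receptor for platelet-derived growth factor on stellate cells, was at 2.26, 2.11 and 1.43 FPKM in DKO and at 2.83, 3.26 and 3.17 FPKM in DKO/hA1 (0.51 ± 0.22). Vim, the intermediate filament protein vimentin that leukocytes also express, was at 19.8, 23.8 and 22.4 FPKM against 27.4, 32.9 and 45.3 FPKM (0.66 ± 0.24). The summed FPKM of the 10 stellate markers was 44.3 to 56.2 in DKO and 61.5 to 89.2 in DKO/hA1, so the sums did not overlap. In bulk liver, more cells of a type and more RNA per cell cannot be told apart, and the part of the stellate markers in the collagen values was not tested.

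Markers of lipid-associated macrophages were also separated by genotype in their library means. Of 14 genes, 13 had positive log2 differences, and the median was 0.69, or 0.66 without the 2 acute phase libraries. Higher without overlap were 6 (Cd63, Lgals3, Itgax, Ctsb, Ctsd and Ctss), against 4.37% of all genes. Itgax was low, at 0.738, 1.16 and 0.716 FPKM in DKO and at 1.99, 2.32 and 1.27 FPKM in DKO/hA1. It thus reached the required level through the DKO/hA1 libraries. The sums that follow are of all listed markers. Their summed FPKM was 688 to 747 in DKO and 902 to 1040 in DKO/hA1. Lgals3, the lectin galectin-3, was at 24.0, 15.3 and 12.7 FPKM in DKO and at 36.3, 43.0 and 27.2 FPKM in DKO/hA1 (1.05 ± 0.30, limma adjusted p 0.759). Cd63, a tetraspanin of late endosomes, was at 11.5, 9.83 and 6.20 FPKM against 16.5, 25.6 and 17.0 FPKM (1.07 ± 0.29). Both genes were highest in DKO/hA1 replicate 2. Trem2 and Gpnmb are given although they overlapped, because they define these cells, a choice made after their values were seen. Trem2, a lipid-sensing receptor, was at 10.5, 5.45 and 5.46 FPKM against 19.5, 25.2 and 8.08 FPKM (1.15 ± 0.44). Gpnmb, a lysosomal glycoprotein, was at 13.6, 1.38 and 0.509 FPKM against 19.96, 62.2 and 5.65 FPKM (2.48 ± 0.96). For both, DKO replicate 1 lay above DKO/hA1 replicate 3.

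Lysosomal proteases differed less, within narrower groups. Ctsd, cathepsin D, was at 335, 267 and 278 FPKM in DKO and at 405, 427 and 356 FPKM in DKO/hA1 (0.47 ± 0.16). Ctsb, cathepsin B, was at 179, 170 and 177 FPKM against 211, 233 and 246 FPKM (0.42 ± 0.14). Ctss, the cathepsin S of antigen-presenting cells, was at 56.7, 49.5 and 45.6 FPKM against 76.4, 79.8 and 99.2 FPKM (0.77 ± 0.28). No library with the transgene fell below one without it in any of these 3. The wider list of 22 lysosomal genes had a median of 0.10, with 15 positive. Without overlap, 4 were higher and 1 (Lamp2) lower, against 4.37% and 5.2% of all genes.

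General macrophage and Kupffer cell markers had 17 of 18 positive differences and a median of 0.50. It was 0.26 without the 2 acute phase libraries, and 0.20 without DKO/hA1 replicate 3 alone. Their summed FPKM was 1070 to 1420 in DKO and 1570 to 2430 in DKO/hA1, highest in DKO/hA1 replicate 3. Cd5l, a protein secreted by tissue macrophages, was at 375, 243 and 259 FPKM against 452, 503 and 551 FPKM (0.83 ± 0.42). Cd68, a lysosomal membrane protein of macrophages, was at 33.9, 24.0 and 24.0 FPKM against 52.1, 53.2 and 37.7 FPKM (0.82 ± 0.38). Clec4f, a lectin of resident Kupffer cells that was picked after its values were seen, was at 96.3, 101 and 102 FPKM against 123, 81.9 and 120 FPKM and did not separate the genotypes (0.13 ± 0.37). The part of macrophage abundance in the lysosomal and matrix values was not tested.

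Among the 15 named higher genes, Lcp1, Cd180, Sirpa and Lilrb4 encode leukocyte proteins. Sirpa, the myeloid receptor for the signal protein CD47, was at 19.2, 13.7 and 9.90 FPKM in DKO and at 23.1, 28.9 and 39.6 FPKM in DKO/hA1 (1.09 ± 0.27, limma adjusted p 0.721). Lcp1, the actin-bundling protein L-plastin, was at 31.5, 29.7 and 25.6 FPKM against 37.0, 40.3 and 37.6 FPKM (0.43 ± 0.10). Cd180, a relative of the Toll-like receptors on B cells and macrophages, was at 2.72, 2.66 and 1.42 FPKM against 5.32, 5.79 and 4.23 FPKM (0.95 ± 0.22). Lilrb4, an inhibitory receptor of myeloid cells, was at 10.6, 7.13 and 6.52 FPKM against 12.8, 13.9 and 15.02 FPKM (0.77 ± 0.20). These 4 did not separate by genotype on chow, where their log2 differences lay between -0.27 and 0.18.

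**Figure D2:**
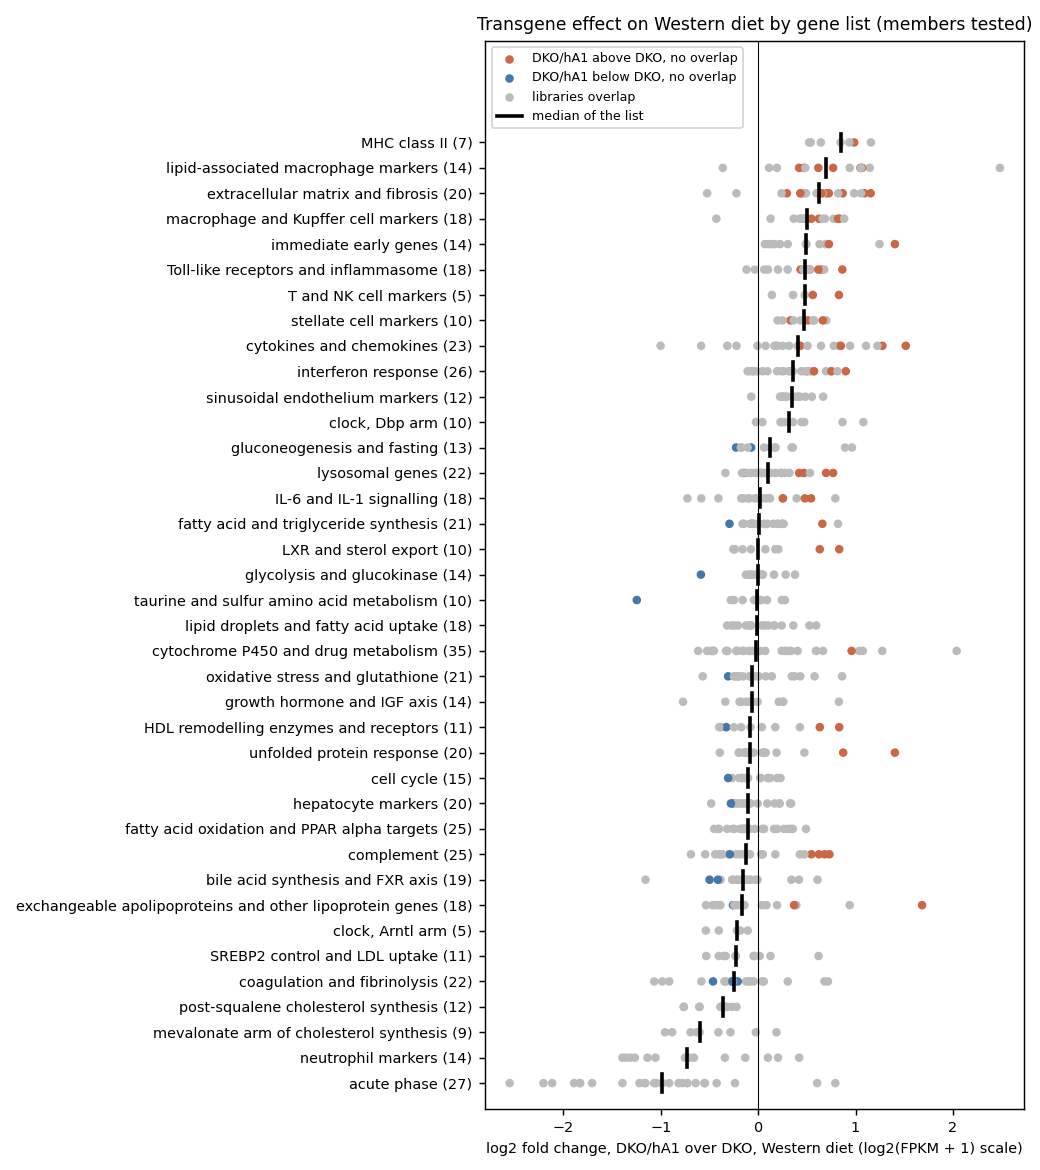
Log2 differences between DKO/hA1 and DKO on Western diet for each measured member of the gene lists (points; number of members in parentheses), with the median of each list (black bar). Points are coloured where the 3 libraries of a genotype all lay above or below the other 3. MHC class II, lipid-associated macrophage and matrix genes lie to the right and acute phase genes to the left, at a median of -0.99.

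Genes of chemokine, interferon and antigen presentation lists were also mostly positive. Of 23 cytokines and chemokines measured, 18 were positive with a median of 0.41. Higher without overlap were 4 (Ccl5, Cxcl16, Ccl4 and Tgfb1), against 4.37% of all genes. The median was 0.19 without the 2 acute phase libraries and 0.12 without DKO/hA1 replicate 3 alone. Ccl5, a chemoattractant for T cells and monocytes, was at 5.30, 1.81 and 2.79 FPKM in DKO and at 19.8, 8.74 and 6.34 FPKM in DKO/hA1 (1.52 ± 0.41, limma adjusted p 0.759). Cxcl16, a chemokine that also acts as a scavenger receptor, was at 6.85, 3.71 and 4.84 FPKM against 8.12, 9.53 and 11.4 FPKM (0.85 ± 0.25). Ccl4 was at 0.864, 0 and 0.286 FPKM against 3.03, 3.02 and 1.07 FPKM. Its groups did not overlap, but all values were low, and it reached the required level through the DKO/hA1 libraries only. Of 18 Toll-like receptor and inflammasome genes, 16 were positive (median 0.48, or 0.23 without the 2 acute phase libraries). Higher without overlap were 5 (Itgax, Vcam1, Tlr1, Tlr4 and Casp1), against 4.37% of all genes. Itgax is also in the lipid-associated macrophage list and reached the required level through the DKO/hA1 libraries. Vcam1, the adhesion molecule of leukocyte entry, was 1 of these 5 at 9.57, 10.1 and 6.26 FPKM against 10.9, 19.5 and 18.7 FPKM (0.86 ± 0.29).

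All 7 MHC class II genes, which present antigen to helper T cells, had positive differences, with a median of 0.85 and 1.27 without the 2 acute phase libraries. H2-Eb1 was at 23.6, 21.6 and 13.2 FPKM in DKO and at 50.2, 42.9 and 24.4 FPKM in DKO/hA1 (0.99 ± 0.43), and was the member that did not overlap. Cd74, the invariant chain that escorts these molecules, was at 89.2, 77.7 and 48.7 FPKM against 172, 150 and 86.9 FPKM (0.94 ± 0.44). In both genes replicate 3 was the lowest library of each genotype. Interferon response genes were positive in 21 of 26, with a median of 0.35 (0.18 without DKO/hA1 replicate 1). Oasl2, Gbp2 and Gbp3 were higher without overlap, 3 of 26 against 4.37% of all genes. Gbp2, a GTPase induced by interferon gamma, was at 3.80, 2.29 and 1.81 FPKM against 6.81, 5.51 and 4.38 FPKM (0.90 ± 0.30). Of the T and NK cell markers 5 of 16 reached the level, all positive (median 0.48), with Il2rb and Gzma not overlapping. Of the dendritic cell markers 4 of 10 reached it, all positive (median 0.44), with Clec9a and Zbtb46 not overlapping. Over all genes, 4.37% were higher without overlap. Low markers can reach the level in 1 genotype alone, so signs and overlap in both lists are not independent of the filter. Sinusoidal endothelium markers were positive in 11 of 12 (median 0.34), and none was free of overlap.

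Genes that act on HDL did not move as a group. Of 11 HDL remodelling enzymes and receptors, 5 were positive and the median was -0.08, or 0.09 without the 2 acute phase libraries and 0.12 under equal totals, where all genes had 0.161. Pltp, which transfers phospholipid to HDL, was at 83.2, 56.6 and 61.1 FPKM in DKO and at 99.1, 113 and 138 FPKM in DKO/hA1 (0.83 ± 0.35). Abcg1, which exports cholesterol to mature HDL, was at 5.74, 3.51 and 3.28 FPKM against 6.38, 8.13 and 5.81 FPKM (0.63 ± 0.25). Scarb1, which takes up HDL cholesterol into hepatocytes, was at 88.4, 114 and 96.7 FPKM against 77.3, 71.3 and 82.3 FPKM (-0.33 ± 0.13). These 3 did not overlap, Pltp and Abcg1 being higher and Scarb1 lower with the transgene. Abca1, the exporter that loads apolipoprotein A-I, was at 31.8, 30.5 and 27.1 FPKM against 26.2, 37.7 and 35.9 FPKM (0.18 ± 0.15). Lcat was at 264, 393 and 427 FPKM against 239, 247 and 311 FPKM (-0.39 ± 0.19), and both of these genes overlapped. Of 18 other lipoprotein genes, including Apoa1 itself, 7 were positive, and Apob was lower without overlap.

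Cholesterol synthesis genes had lower values with the transgene on Western diet, but their libraries overlapped. The mevalonate arm, which makes isoprenoid precursors, was negative in 8 of 9 genes with a median of -0.60. The post-squalene steps were negative in 12 of 12 with a median of -0.36. None of these 21 genes was free of overlap. Hmgcs1, the synthase that forms HMG-CoA, was at 25.5, 77.6 and 51.3 FPKM in DKO and at 30.8, 10.9 and 35.6 FPKM in DKO/hA1 (-0.96 ± 0.53). Idi1, the isopentenyl diphosphate isomerase, was at 7.80, 41.1 and 36.6 FPKM against 13.7, 5.11 and 22.0 FPKM (-0.88 ± 0.62). Nsdhl, a sterol dehydrogenase of the post-squalene steps, was at 5.45, 22.6 and 22.8 FPKM against 10.3, 4.19 and 10.8 FPKM (-0.76 ± 0.48). DKO/hA1 replicate 2 was the lowest library in all 3, and DKO replicate 1 lay within the range of the transgenic libraries. Without the 2 acute phase libraries the medians were -0.31 and -0.34. They ranged from -1.13 without DKO replicate 1 to -0.10 without DKO/hA1 replicate 2 for the mevalonate arm. For the post-squalene steps they ranged from -0.84 without DKO replicate 1 to -0.23 without DKO replicate 3. On chow the same lists had positive medians, 0.67 for the mevalonate arm and 0.36 for the post-squalene steps. For Hmgcs1 the difference between the diets' effects had a limma adjusted p of 0.961.

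Lists of fatty acid and bile acid metabolism stayed near the centre. Fatty acid and triglyceride synthesis had a median of 0.01 over 21 genes, or 0.10 without the 2 acute phase libraries. Without overlap, 1 (Scd2) was higher and 1 (Agpat2) lower, against 4.37% and 5.2% of all genes. Scd2, a stearoyl-CoA desaturase that makes monounsaturated fatty acids, was at 6.32, 4.63 and 5.15 FPKM against 6.44, 9.69 and 10.8 FPKM (0.66 ± 0.21). Fatty acid oxidation and PPAR alpha targets had a median of -0.11 over 25 genes (0.09 under equal totals, -0.06 without the 2 acute phase libraries), and lipid droplet genes -0.02 over 18 (0.18 and 0.09). Bile acid genes were negative in 16 of 19 (median -0.15). Their median was 0.05 without the 2 acute phase libraries, and 0.05, below that of all genes, under equal totals. Among the bile acid genes Cyp27a1, the sterol 27-hydroxylase, was at 204, 226 and 278 FPKM against 202, 165 and 125 FPKM (-0.50 ± 0.18). Klb, the FGF15 co-receptor beta-klotho, was at 8.50, 9.03 and 5.74 FPKM against 5.70, 5.32 and 5.01 FPKM (-0.41 ± 0.15). In both, the genotypes were separated by a narrow gap, 2 of 19 against 5.2% of all genes lower without overlap. Csad, the decarboxylase that makes taurine for bile acid conjugation, was at 46.3, 40.6 and 74.9 FPKM against 27.4, 17.9 and 18.4 FPKM (-1.25 ± 0.39, limma adjusted p 0.759). On chow Csad was at 47.0 to 141 FPKM against 209 and 144 FPKM, with the transgenic libraries on top. The limma adjusted p of the interaction was 0.961.

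Among drug metabolism genes, 16 of 35 were positive (median -0.02, or 0.17 under equal totals against 0.161 for all genes) and Ugt1a9 did not overlap. Without the 2 acute phase libraries 25 were positive and the median was 0.19. Ugt1a9, a UDP-glucuronosyltransferase, was at 2.40, 4.05 and 6.10 FPKM in DKO and at 6.39, 10.1 and 9.33 FPKM in DKO/hA1 (0.96 ± 0.23, limma adjusted p 0.721). On chow it was at 23.1 to 25.8 FPKM against 38.3 and 47.4 FPKM, again without overlap. Genes of the Ugt1a cluster share their 3′ exons, so this value is uncertain as to which gene it belongs to.

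The remaining named higher genes were Tax1bp3, Snora65, Anxa5, Mnda and AI607873. Tax1bp3, a small PDZ domain protein, was at 7.48, 7.27 and 6.89 FPKM in DKO and at 9.79, 10.5 and 10.5 FPKM in DKO/hA1 (0.49 ± 0.09, limma adjusted p 0.45). Within each genotype its 3 libraries differed by less than 1 FPKM. Anxa5, the phosphatidylserine-binding annexin A5, was at 43.3, 40.5 and 30.3 FPKM against 77.5, 47.4 and 72.0 FPKM (0.79 ± 0.20). Snora65, a small nucleolar RNA, was at 18.8, 35.3 and 31.1 FPKM against 103, 77.7 and 115 FPKM (1.82 ± 0.38). Mnda and AI607873 had differences of 0.63 ± 0.16 and 0.77 ± 0.20.

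Of the 15 named lower genes, Mrpl16, Mrpl46 and Mrps7 encode proteins of the mitochondrial ribosome. Mrpl16 was at 33.0, 30.7 and 34.8 FPKM in DKO and at 26.5, 22.9 and 22.1 FPKM in DKO/hA1 (-0.41 ± 0.10, limma adjusted p 0.721). Mrpl46 was at 18.7, 18.1 and 18.99 FPKM against 14.3, 13.7 and 14.4 FPKM (-0.34 ± 0.08). Mrps7 was at 36.0, 41.3 and 47.7 FPKM against 31.8, 30.9 and 26.8 FPKM (-0.43 ± 0.12). The sizes were small, and the absence of overlap was required by the naming rule. Mettl1, which methylates transfer RNA, was at 10.97, 11.5 and 11.5 FPKM against 7.57, 5.08 and 7.69 FPKM (-0.65 ± 0.14, limma adjusted p 0.651). Rpl29, a cytosolic ribosomal protein with many near-identical pseudogenes and therefore an uncertain value, was at 9.09, 8.21 and 5.13 FPKM against 4.02, 3.04 and 3.82 FPKM (-0.82 ± 0.18).

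Other lower genes were of the cell surface and of metabolism. Cd302, a C-type lectin receptor, was at 285, 439 and 426 FPKM in DKO and at 189, 114 and 238 FPKM in DKO/hA1 (-1.09 ± 0.29, limma adjusted p 0.721). Cadm4, a cell adhesion molecule, was at 7.81, 14.4 and 6.295 FPKM against 4.71, 3.59 and 1.79 FPKM (-1.22 ± 0.30). Ldha, the lactate dehydrogenase subunit of glycolysis, was at 530, 707 and 764 FPKM against 438, 371 and 480 FPKM (-0.59 ± 0.17). For Ldha and Cd302 the DKO Western diet libraries were the high ones: on chow Ldha was at 350 to 441 FPKM in DKO and 387 and 411 FPKM in DKO/hA1, and Cd302 at 159 to 236 FPKM and 113 and 179 FPKM. Cyp2d40, a cytochrome P450, was at 91.6, 73.2 and 97.1 FPKM against 72.1, 54.6 and 43.0 FPKM (-0.60 ± 0.17), and on chow at 54.6 to 64.9 FPKM against 31.3 and 33.0 FPKM. Ggcx, the carboxylase of vitamin K-dependent clotting factors, was at 24.8, 26.5 and 26.0 FPKM against 19.2, 16.5 and 21.6 FPKM (-0.39 ± 0.11). Among 22 coagulation and fibrinolysis genes 17 were negative with a median of -0.25. Under equal totals, where the median of all genes was 0.161, 13 were negative and the list median was -0.05. Serpinf2, F2, F12 and Serpinc1 were lower without overlap, 4 of 22 against 5.2% of all genes. The other 5 named lower genes (Abcd4, Ebpl, Gm13315, Wibg and Atp6v0e2) had differences from -0.77 to -0.36.

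Acute phase and neutrophil genes varied widely within groups. Of 27 acute phase genes, plasma proteins that hepatocytes make in inflammation, 25 were negative with a median of -0.99, and none was free of overlap. The median was -1.39 without the 2 acute phase libraries, and ran from -1.69 without DKO/hA1 replicate 3 to -0.58 without DKO/hA1 replicate 1. Their mean log2 level was 8.96, 10.6 and 10.1 in DKO replicates 1, 2 and 3 and 7.76, 8.29 and 10.6 in DKO/hA1. DKO/hA1 replicate 3 thus lay with the high DKO libraries. Saa2 was at 4021, 42634 and 21994 FPKM in DKO and at 446, 1051 and 36968 FPKM in DKO/hA1 (-2.55 ± 1.59, limma adjusted p 0.94). Hp, haptoglobin, was at 5285, 16955 and 11337 FPKM against 2684, 3183 and 12532 FPKM (-1.05 ± 0.55). On chow Saa2 was at 55.1 to 148 FPKM in DKO and at 85.8 and 599 FPKM in DKO/hA1. Neutrophil markers followed the same libraries: S100a8, a calprotectin subunit, was at 44.3, 455 and 112 FPKM against 7.32, 38.5 and 426 FPKM. Of 14 neutrophil markers 11 were negative with a median of -0.73, which was -1.06 without the 2 acute phase libraries and -1.97 without DKO/hA1 replicate 3 alone. The median was 0.14 without DKO replicate 2 and 0.06 without DKO/hA1 replicate 1, and in the latter case S100a8 differed by 0.015.

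**Figure D3:**
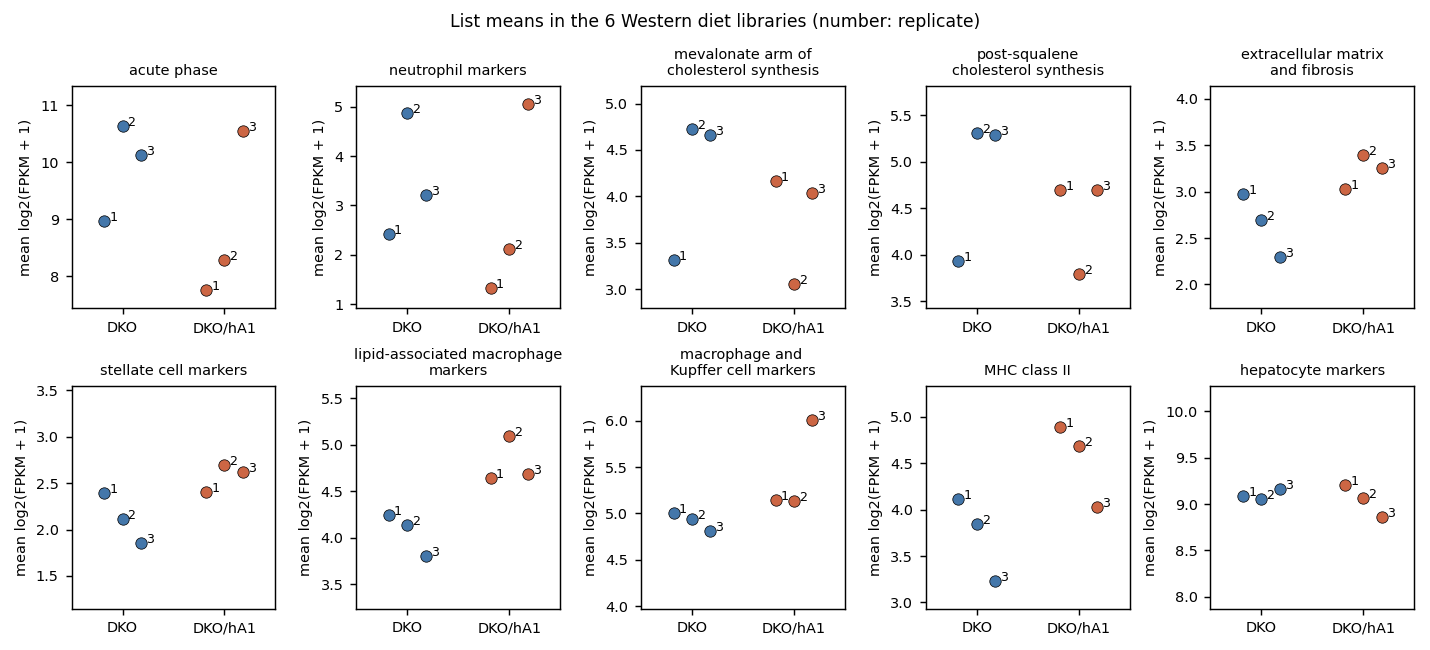
Mean log2(FPKM + 1) of the measured members of 10 lists in each Western diet library, numbered by replicate; the vertical span differs between panels. The means of matrix, stellate cell and both macrophage lists separate the genotypes, while DKO/hA1 replicate 3 lies among the DKO libraries for acute phase genes, at 10.6.

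The same transgene contrast on chow shares no library with that on Western diet. There limma called 7 genes (0.0621%): Apoa1, Dio1, Mir568, Mup5, Rn45s, Rpl35 and Synj2. Of the 15 genes named as higher on Western diet, 11 had positive differences on chow and 6 were higher without overlap, against 12.3% of all genes. Of the 15 named as lower, 10 were negative on chow and 3 were lower without overlap, against 9.37% of all genes. Over all 493 genes higher without overlap on Western diet, 67 (13.6%) were higher without overlap on chow, against 12.3% of all genes. Lower without overlap on chow were 8 (1.62%), against 9.37% of all genes. Of the 586 lower genes, 70 (11.9%) were lower without overlap on chow, against 9.37% of all genes, and 42 (7.17%) higher, against 12.3%. Separation in the same direction on both diets was thus near or slightly above the share among all genes, and separation in opposite directions was below it. Apoa1, Nupr1, Atf3, Dpt, Ugt1a9 and Anxa5 were the 6 named higher genes that were higher without overlap on both diets.

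Matrix genes were mostly positive on both diets: 18 of 20 were positive on Western diet and 19 of 20 on chow, where the median was 0.35. Smoc2 was at 1.15 to 2.91 FPKM in DKO chow and at 5.80 and 4.87 FPKM in DKO/hA1 chow (1.21 ± 0.22, limma adjusted p 0.143). Col1a1 was at 1.35 to 3.38 FPKM against 5.91 and 4.55 FPKM (1.14 ± 0.32). The 2 genes did not overlap on either diet. Macrophage and Kupffer cell markers had opposite medians, 0.50 on Western diet and -0.59 on chow, where 3 of 18 were positive. Cd5l on chow was at 69.7 to 173 FPKM in DKO and at 141 and 42.7 FPKM in DKO/hA1 (-0.81 ± 0.45). Neither of these values passed, and the limma adjusted p of the interaction was 0.961 for Cd5l.

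**Figure D4:**
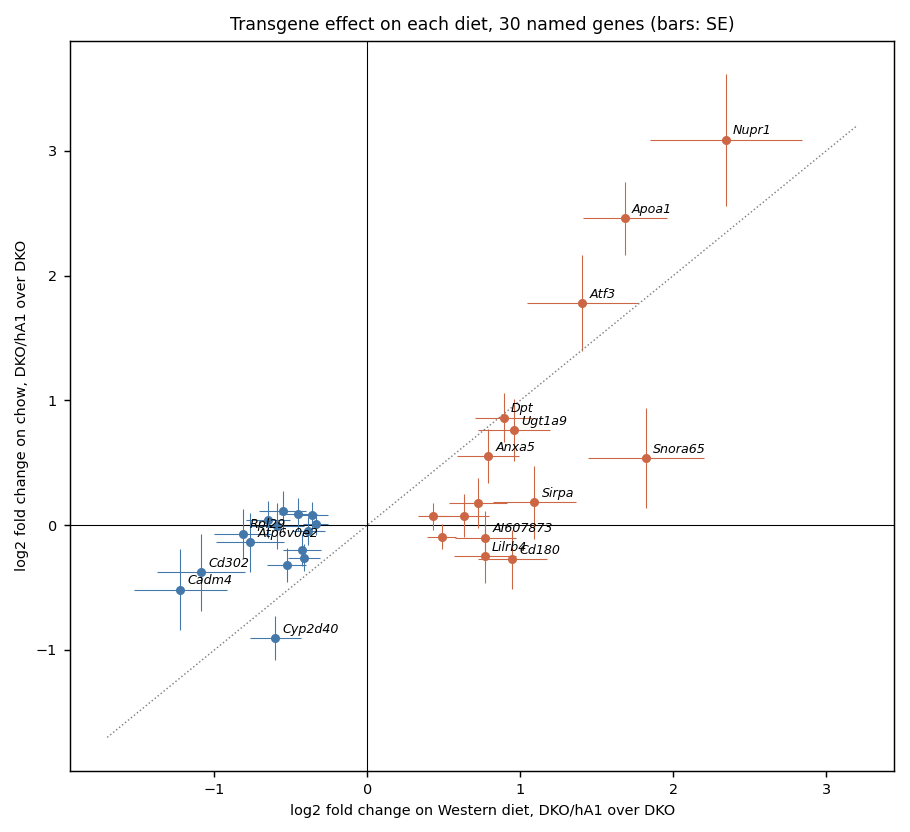
Log2 difference between DKO/hA1 and DKO on Western diet (horizontal) and on chow (vertical) for the 30 named genes, with SE bars; the dotted line marks equal values. The genes were selected on the horizontal axis, and Nupr1, Apoa1 and Atf3 lie highest on the vertical axis, at 3.09, 2.46 and 1.78.

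The interaction, the test of whether the transgene effect differed between diets, called 3 genes by limma (0.0266%), Rpl35, Rn45s and Mup5, and 545 genes had an unadjusted p under 0.05 (4.83%). All 3 rest on the chow libraries, and Mup5 did not pass under equal totals, with the clock index or without any 1 of 9 libraries (limma adjusted p 0.0514 to 0.231). Rpl35, a ribosomal protein, was at 171, 185 and 191 FPKM in DKO and at 164, 147 and 186 FPKM in DKO/hA1 on Western diet, but at 126 to 166 FPKM against 1.296 and 0.284 FPKM on chow. Mup5, a major urinary protein, was at 2811, 1076 and 1249 FPKM against 2367, 2176 and 329.6 FPKM on Western diet and at 981 to 3048 FPKM against 2.70 and 2.84 FPKM on chow. Rn45s, the ribosomal RNA precursor, was at 590, 190 and 580 FPKM against 238, 280 and 223 FPKM on Western diet, and was listed at 0 in all DKO chow libraries. These genes have many near-identical copies, so their values are uncertain.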

How the data were processed

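Liver RNA was sequenced in 12 libraries of 4 groups. Per the submitters' processing notes, reads were aligned with TopHat 1.3.2 and Bowtie 0.12.8 to mm10 and quantified with Cuffdiff, with SAMtools 0.1.19 also named. The deposited table holds FPKM made by the authors, and the total fragments per library are not given in the sources used here, so no counting interval is given. Samples of an RNA integrity number under 7 had been discarded, per the labels. Libraries were brought to a common scale with a trimmed mean of their log ratios, without weights (trims 0.3 and 0.05), and log2 was taken after adding 1. A linear model of the 4 groups over 12 libraries was fitted with limma 3.58.1 in R 4.3.3 (trended, robust variance), tested on simulated data, with two-sided Benjamini-Hochberg adjustment over 11276 genes. Overlap was read from unscaled FPKM. Some genes are not reported here. Named genes followed the rule stated in the text, with up to 4 members per list by p, and interaction calls; Smoc2, Htra1, Col6a1, Trem2, Gpnmb, Clec4f, Ccl6 and Lcn2 were chosen after their values were seen. The comparison, its members and the lists were chosen with earlier results of these data known. The 26 alternatives varied the added value, scaling, filters, model and libraries. Python 3.11.15 made the summaries.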

Additional observations from a re-analysis of the deposited data

Results flagged for a closer look

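Rpl35, Rn45s and Mup5 are given here because the effect of the transgene differed between Western diet and chow by limma's interaction test. The log2 difference on Western diet minus that on chow was 6.37 for Rpl35 (adjusted p 8.3e-07), 8.52 for Mup5 (adjusted p 0.0242) and -8.12 for Rn45s (adjusted p 2.21e-05). The value of Rn45s depends on the 1 added before the log2, since it was listed at 0 in all 4 DKO chow libraries, and is no bound. On Western diet alone the differences were -0.11 ± 0.19, -0.35 ± 0.70 and -0.67 ± 0.33, none of which passed.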

How the results depend on the processing

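No gene was called on Western diet under 17 of 26 alternatives, and 347 to 1019 genes had an unadjusted p under 0.05. With the 6 Western diet libraries alone 1 gene was called (Snord47). Leaving out 1 library gave 0 to 4 calls: 4 without DKO/hA1 Western diet replicate 3 (Apoa1, Gm8883, Snora30 and Snord104), 2 each without DKO Western diet replicate 1 (Bcl2a1a and Mir29c) or 2 (Rn45s and Snora3), and 1 small RNA gene each without DKO Western diet replicate 3, DKO/hA1 Western diet replicate 1 or either DKO/hA1 chow library. Without both libraries highest in acute phase genes there were 5 (Mpo, Rn45s, Snora3, Snora30 and Snord104). The 7 chow calls became 18 with no filter on level, 22 with a random block for code number (correlation within a number 0.575), 3 with the clock index and 29 without both acute phase libraries, and 3 to 23 without 1 library (23 without DKO/hA1 Western diet replicate 3, 3 without DKO/hA1 chow replicate 2). The 3 interaction calls became 6 with no filter, and 2 to 9 without 1 library (9 without DKO/hA1 Western diet replicate 3). The cause was not tested.

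The labels do not say that replicate numbers pair the samples. Deviations of same-numbered Western diet libraries correlated at 0.315, -0.238 and 0.028, and those of differently numbered ones at -0.446 to 0.482. The 0.315 belongs to replicate 1, which has code number 41 in both groups. These values do not settle whether same-numbered or same-coded libraries are related. With the replicate block 0 genes were called on Western diet (smallest adjusted p 0.0508, 586 at an unadjusted p under 0.05).

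Of 2328 alternatives over 90 genes, 2315 kept direction and side of the threshold. Passing values were Apoa1 1.965 without DKO/hA1 replicate 3 (adjusted p 0.0285) and Rn45s -1.199 without DKO replicate 2 and -1.134 without both acute phase libraries (adjusted p 0.0135 and 0.0202). Reversed values, none of which passed, were Apoe -0.087 with the code number as a block (-0.099 to 0.766 without 1 library), Ccl6 -0.033 without both acute phase libraries (-0.004 to 0.376), S100a8 -2.84 to 0.015, Rpl35 0.095 under equal totals, and Mup5 0.318 without both (-0.832 to 0.574). Further, Apoe was -0.086 without DKO replicate 3 and Mup5 0.071 without DKO replicate 1. Of 1220 alternatives over list medians, 1201 moved by less than 1 SD. Depth being unknown, values near 1 FPKM carry an unstated counting error.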

Other observations

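Female-biased liver genes, of which 6 of 12 reached the required level, were all positive with the transgene on Western diet (median 0.85) and 1 of 6 was positive on chow (median -0.34). Low genes can reach that level in 1 genotype alone, so the signs on Western diet are not independent of the filter. No member was free of overlap on Western diet, and the summed FPKM was 7.01 to 26.7 in DKO and 9.73 to 76.2 in DKO/hA1. Male-biased genes had a median of 0.11, with 8 of 15 positive, or 0.46 with 11 positive without the 2 acute phase libraries.

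The clock lists also differed between libraries. Genes of the Dbp arm were positive in 9 of 10 on Western diet (median 0.31, or 0.70 without the 2 acute phase libraries) and in 0 of 10 on chow (median -0.92). Genes of the Arntl arm were negative in 5 of 5 on Western diet (median -0.22, or -0.42 without the 2 acute phase libraries). An index of the Arntl arm minus the Dbp arm was -0.33, -0.74 and 0.84 in the DKO Western diet libraries and -1.04, -1.31 and 0.05 in DKO/hA1, so the groups overlapped. On chow it was -1.64, -1.48, 1.67 and 1.26 in DKO and 1.00 and 1.40 in DKO/hA1. DKO chow replicates 1 and 2 thus lay far from both transgenic chow libraries, and the part of this index in the chow differences was not tested beyond its use as a covariate.

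Ccl6, a macrophage chemokine chosen after its values were seen, was at 34.5, 31.3 and 33.6 FPKM in DKO and at 27.4, 38.1 and 46.1 FPKM in DKO/hA1 on Western diet, against 7.64 to 9.56 FPKM and 5.55 and 2.98 FPKM on chow. Lcn2, an iron-carrier-binding protein of neutrophils and inflamed hepatocytes, was at 401, 3222 and 1132 FPKM in DKO and at 89.7, 231 and 3574 FPKM in DKO/hA1 on Western diet. It was highest in the same libraries as Saa2. C3ar1, the receptor for complement fragment C3a on myeloid cells, was at 1.93, 1.03 and 1.05 FPKM against 2.35, 3.15 and 2.87 FPKM (0.73 ± 0.18). Of 25 complement genes 10 were positive, with a median of -0.13 that was 0.07 under equal totals, where all genes had 0.161.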
